A study of Mus musculus with 16 samples.

Results

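The mitochondrial respiratory chain was followed through 72 nuclear genes in the hippocampus of 16 male C57BL/6 wildtype mice aged 3 months. The genes were taken by symbol, as those that start with Nduf, Uqcr, Atp5 or Cox4 to Cox8 together with Sdha to Sdhd, Cyc1 and Cycs, and each is represented by its probe set with the highest mean among the probe sets annotated to it alone. They were 72 of the 13180 genes that had such a probe set on the array. The mice had received kainic acid (20 mg/kg), the MEK inhibitor SL327 (50 mg/kg) 1 h before kainic acid (20 mg/kg), SL327 alone (50 mg/kg) or vehicle (3 mice in each of these 4 groups), or were left untreated (4 mice). Kainic acid and inhibitor went into the peritoneum, and mice were killed 1 h after the first seizure or after vehicle. For SL327 alone the sample labels give 1 h after treatment, while the legends for hybridized brain sections of mice treated in this way give 2 h after injection, so the interval for these arrays is uncertain. Each array held the RNA of 1 hippocampus, with no pooling of mice, and the vehicle is called PBS in the sample labels and a mixture of DMSO and PBS in the methods. The whole hippocampus was hybridized, so that in this bulk tissue fewer cells of a type and less RNA per cell cannot be told apart.

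The respiratory chain passes electrons from NADH and succinate to oxygen through complex I (NADH dehydrogenase), complex II (succinate dehydrogenase), complex III (the cytochrome bc1 complex), cytochrome c and complex IV (cytochrome c oxidase), and ATP synthase, or complex V, uses the resulting proton gradient. Most of its subunits are encoded in the nucleus, and a few core subunits in the mitochondrial genome. Neurons depend on it for ion pumping and transmitter release, and kainic acid, a glutamate receptor agonist, drives intense firing in the hippocampus, while SL327 blocks the kinase that activates ERK. The 72 genes comprised 28 subunit genes of complex I, 4 of complex II, 9 of complex III, 12 of complex IV and 11 of complex V, the cytochrome c gene Cycs, and 7 Ndufaf genes. The Ndufaf genes match the symbol rule but encode assembly factors of complex I and not subunits. None of the 13 mitochondrially encoded subunit genes had a probe set on the table. A further 10 probe sets that share a respiratory chain gene with another gene, among them those of Ndufa10, Cox6c, Ndufa11 and Ndufs5, were left out.

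Values are log2 intensities, on which a difference of 1 is a doubling, and the level of one probe set cannot be set against that of another. Differences were tested with limma over the 8520 annotated probe sets whose intensity was above the median of 3 or more arrays, and a gene is said to have risen or fallen where its Benjamini-Hochberg adjusted p over all of them was under 0.05. Of the 72 genes, 49 passed this intensity filter and 23 did not, among them Cycs, Uqcrfs1, Cox8a, Cox7b and Ndufaf5. The filter does not look at groups, but a gene near the median can pass in 1 group only, and 3 of the 49 (Atp5mpl, Cox7c and Cox8b) lay above the median in 3 to 5 arrays. The arrays correlated with the others of their group at a mean r of 0.958 to 0.975, with untreated replicate 2 lowest. Of markers of hippocampal cells, 3 of 7 measured excitatory neuron genes, 3 of 6 dentate granule cell genes, 6 of 8 interneuron genes, 6 of 7 oligodendrocyte genes and 4 of 5 astrocyte genes exceeded the array median in all arrays. All 9 tested genes of a list of 10 immediate early genes rose with kainic acid, and none of them with SL327 alone.

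The promoters of 6 of the genes that differed between groups are shown for the letters that regulators of respiratory genes are known to bind. The windows run from 250 bases before to 50 bases after the transcription start in RefSeq (GRCm38.p6), 5′ to 3′ on the gene's strand. Capitals mark GCGCATGC (NRF1), CCGGAAG (ETS factors such as GABP) and AAGATGGC (YY1), searched on both strands, and TGACGTCA (the cyclic AMP response element) was searched as well. Matches of different motifs did not overlap, and the NRF1 letters overlap on the opposite strands at 1 place each in Ndufaf4 and Uqcrc1. Ndufs3 (chr2:90904672-90904971, minus strand), Ndufv3 (chr17:31519865-31520164, plus strand) and Ndufaf4 (chr4:24897833-24898132, plus strand) were lower after kainic acid. Uqcrc1 (chr9:108936398-108936697, plus strand), Ndufa9 (chr6:126849095-126849394, minus strand) and Ndufa3 (chr7:3617123-3617422, plus strand) were higher after SL327.
Ndufs3: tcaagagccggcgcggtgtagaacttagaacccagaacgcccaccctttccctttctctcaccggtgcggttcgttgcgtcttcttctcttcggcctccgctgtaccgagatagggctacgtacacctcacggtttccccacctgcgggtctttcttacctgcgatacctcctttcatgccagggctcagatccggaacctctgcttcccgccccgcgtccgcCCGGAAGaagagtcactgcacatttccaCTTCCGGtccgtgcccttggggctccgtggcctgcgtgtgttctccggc
Ndufv3: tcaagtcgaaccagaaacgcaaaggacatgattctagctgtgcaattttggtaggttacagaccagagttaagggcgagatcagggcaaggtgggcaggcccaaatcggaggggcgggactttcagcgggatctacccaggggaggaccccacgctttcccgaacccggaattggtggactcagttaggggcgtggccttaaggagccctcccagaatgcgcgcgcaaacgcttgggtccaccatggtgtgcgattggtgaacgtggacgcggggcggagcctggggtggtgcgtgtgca
Ndufaf4: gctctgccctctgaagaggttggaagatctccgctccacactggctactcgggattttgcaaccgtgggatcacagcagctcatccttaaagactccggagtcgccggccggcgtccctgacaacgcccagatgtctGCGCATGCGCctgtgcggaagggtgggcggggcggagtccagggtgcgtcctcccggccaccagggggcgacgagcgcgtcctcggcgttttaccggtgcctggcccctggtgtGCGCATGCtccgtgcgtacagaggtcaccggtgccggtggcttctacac
Uqcrc1: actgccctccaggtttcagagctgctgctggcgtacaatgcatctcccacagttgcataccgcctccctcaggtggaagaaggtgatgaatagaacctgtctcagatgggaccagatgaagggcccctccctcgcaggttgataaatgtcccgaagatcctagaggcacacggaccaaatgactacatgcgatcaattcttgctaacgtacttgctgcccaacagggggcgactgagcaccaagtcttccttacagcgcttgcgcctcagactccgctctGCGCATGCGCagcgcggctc
Ndufa9: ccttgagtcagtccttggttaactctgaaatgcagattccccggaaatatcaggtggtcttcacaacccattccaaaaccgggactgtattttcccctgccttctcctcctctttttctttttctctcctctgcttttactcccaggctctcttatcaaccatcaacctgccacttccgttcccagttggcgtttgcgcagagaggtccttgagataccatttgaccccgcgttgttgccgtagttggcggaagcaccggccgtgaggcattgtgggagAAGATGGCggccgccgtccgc
Ndufa3: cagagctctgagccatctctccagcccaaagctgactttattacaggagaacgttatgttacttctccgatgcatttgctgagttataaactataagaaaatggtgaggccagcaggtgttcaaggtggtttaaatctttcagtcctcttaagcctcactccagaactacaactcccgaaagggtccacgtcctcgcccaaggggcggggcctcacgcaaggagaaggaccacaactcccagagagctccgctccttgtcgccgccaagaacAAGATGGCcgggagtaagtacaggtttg

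The Ndufs3 promoter held the ETS letters on both strands, those of Ndufaf4 and Uqcrc1 held the NRF1 letters, those of Ndufa9 and Ndufa3 held the YY1 letters after the start, and the Ndufv3 window held none of the 4. The 2 windows of Atp5d, which rose with kainic acid, are not printed and also held none of the 4. Of the 57 genes of the chain with a promoter in the RefSeq table, 16 (28.1%) held the ETS letters, against 9.93% of the 27025 genes in the table, 11 (19.3%) the NRF1 letters, against 3.05%, and 7 (12.3%) the YY1 letters, against 3.19%. The response element letters stood in 3 of the 57 (5.26%), against 2.03% of all genes, and these were Cycs, Ndufb2 and Uqcrfs1, none of which passed the intensity filter. Over single windows the 4 shares were 8.86%, 2.71%, 2.75% and 1.79% of 32851. A match of letters is a description of the window and was not set against binding data.

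After kainic acid, 3 genes of complex I or its assembly fell and 1 gene of ATP synthase rose relative to vehicle, and 45 of the 49 tested genes did not pass the test. The 3 that fell (6.12% of 49) stand against 12.2% of all 8520 tested probe sets, and the 1 that rose (2.04%) against 7.41%. Both shares of the respiratory genes were below those of the table. With arrays centred on their median, 9.17% of the probe sets rose and 9.68% fell. At an unadjusted p under 0.05, 4 of the 49 genes were higher and 4 lower by limma, against 10.8% and 22.8% of the probe sets. Among the 4 higher was Cox7c, which passed the intensity filter only through its high values in kainic acid arrays.

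Ndufs3, a core subunit of the arm of complex I that leads electrons to ubiquinone, had log2 intensities of 7.47, 7.24 and 7.15 in kainic acid mice, against 7.88, 7.83 and 7.70 in vehicle mice. It had 7.73, 7.79 and 7.76 in mice given SL327 with kainic acid, 7.94, 7.75 and 7.84 with SL327 alone, and 7.98, 8.26, 7.95 and 7.95 in untreated mice. All 3 kainic acid arrays were below all 13 others. Kainic acid mice averaged 7.29 ± 0.16 and vehicle mice 7.80 ± 0.09 (SD, n = 3 each), a log2 difference of -0.52 (SE 0.09), or 1.43-fold lower, with a limma adjusted p of 0.00146. The dimmer probe set of Ndufs3, which did not pass the filter, differed by -0.64 between the same groups (adjusted p = 0.0672 by limma without the filter). Its kainic acid arrays, at 5.98, 6.1 and 5.67, overlapped untreated arrays (6.07, 6.05, 6.71 and 6.09) and SL327 arrays (5.65, 5.99 and 6.47). SL327 mice differed from vehicle by -0.52 in this probe set (adjusted p = 0.220 by limma without the filter).

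Ndufv3, an accessory subunit of the NADH-oxidizing module of complex I, had 7.80, 7.44 and 7.60 in kainic acid mice, against 7.95, 8.11 and 8.04 in vehicle mice. The groups did not overlap, and the 3 kainic acid arrays were also below the 4 untreated ones, at 7.92, 8.31, 8.04 and 7.91. The log2 difference from vehicle was -0.42 (SE 0.10, limma adjusted p = 0.00801). Ndufaf4, an assembly factor of complex I, had 7.41, 7.28 and 7.24 in kainic acid mice, against 7.57, 7.41 and 7.66 in vehicle mice. Here the highest kainic acid array reached the lowest vehicle array, and the difference was -0.24 (SE 0.06, limma adjusted p = 0.0187). This call was lost without vehicle replicate 1 or 3 or kainic acid replicate 2 or 3, where adjusted p rose to at most 0.0847.

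Atp5d, the delta subunit in the rotating stalk of ATP synthase, moved the other way. It had 8.94, 9.10 and 9.04 in kainic acid mice, against 8.73, 8.84 and 8.78 in vehicle mice. It had 8.78, 8.61, 8.81 and 8.80 in untreated mice, so that every kainic acid array was above every vehicle and untreated array. The difference from vehicle was 0.24 (SE 0.06, limma adjusted p = 0.00845). SL327 mice, at 8.96, 8.94 and 8.92, and mice given both drugs, at 8.94, 8.91 and 8.87, were also above all vehicle and untreated arrays. Ndufs3, Ndufv3 and Atp5d kept their calls in each of the 16 fits that left out 1 array. Without kainic acid replicate 1, however, 7 genes passed in place of 4, with Ndufs1, Sdha and Atp5pb added among those that fell.

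**Figure D1:**
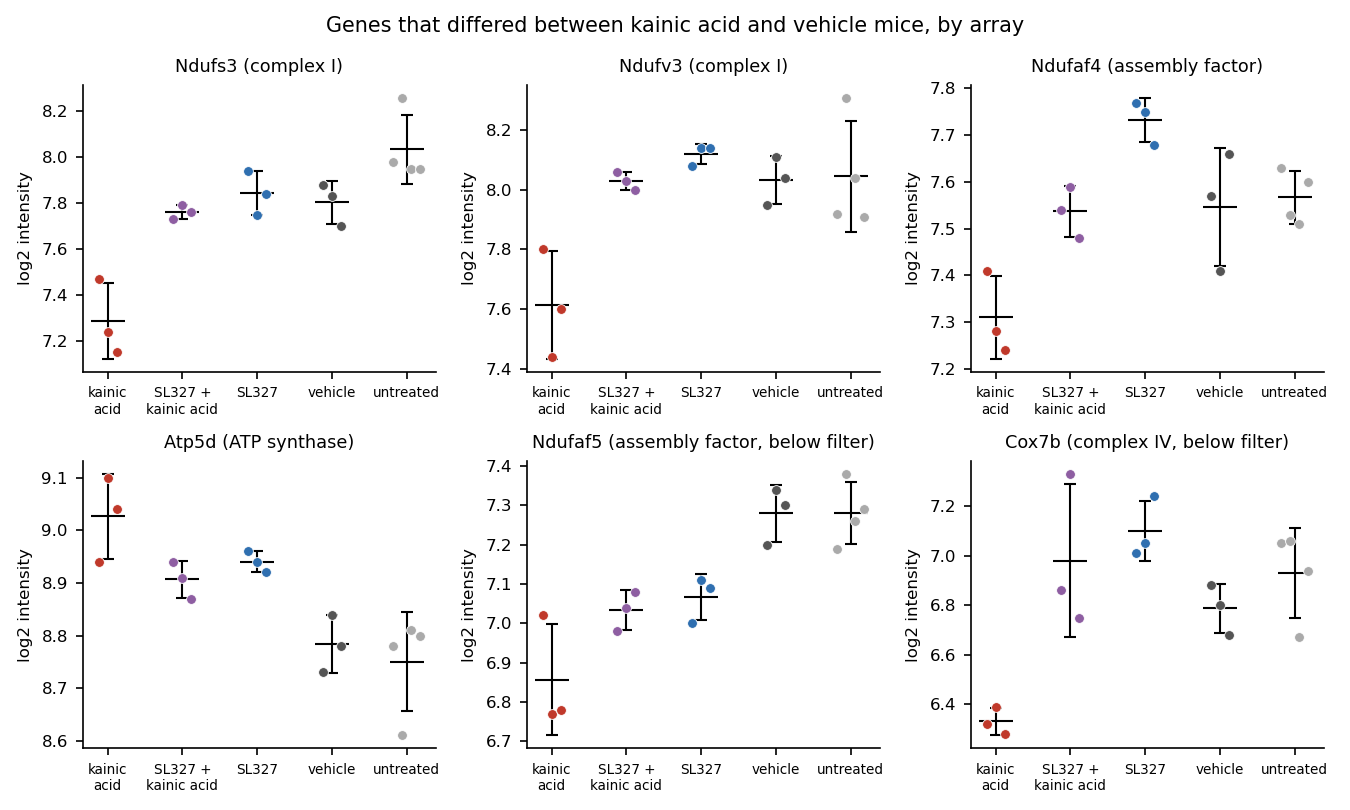
Log2 intensity (y axis) of 6 genes in each of the 16 arrays (points) by group (x axis), with the group mean and SD (bars). In kainic acid mice Ndufs3 lies at 7.15 to 7.47 and Cox7b at 6.28 to 6.39, below all arrays of the other groups, and Atp5d at 8.94 to 9.10, above all vehicle and untreated arrays. Ndufaf5 and Cox7b did not pass the intensity filter.

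A pair of genes below the intensity filter was lower as well, and these were picked after their values were seen. Ndufaf5, another assembly factor of complex I, had 7.02, 6.77 and 6.78 in kainic acid mice, against 7.20, 7.34 and 7.30 in vehicle mice, a difference of -0.42. It was also below all vehicle and untreated arrays in SL327 mice, at 7.0, 7.11 and 7.09 (difference from vehicle -0.21). The same held in mice given both drugs, at 6.98, 7.04 and 7.08 (-0.24). Cox7b, a small subunit of complex IV, had 6.32, 6.39 and 6.28 in kainic acid mice, against 6.88, 6.80 and 6.68 in vehicle mice, a difference of -0.46. In both genes the groups did not overlap, as was so for 14 of the 72 genes with all kainic acid arrays below vehicle (19.4%), against 23.7% of the other genes. In the limma fit without the filter, adjusted p was 0.00144 for Ndufaf5 and 0.0354 for Cox7b. Of all 72 genes, 1 (1.39%) was then higher and 5 (6.94%) lower, against 4.92% and 8.41% of the 15417 probe sets in that fit.

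A list of 17 core and entry subunits, which does not hold Ndufs3, had 14 measured and 12 tested genes, and none of these 12 rose or fell with kainic acid. Their differences from vehicle lay between -0.20 for Ndufs1, the iron-sulfur subunit at the tip of complex I (SE 0.07, limma adjusted p = 0.0617), and 0.13 for Cyc1, the cytochrome c1 of complex III. Ndufs1 had 8.42, 8.23 and 8.38 in kainic acid mice, against 8.58, 8.55 and 8.52 in vehicle mice, without overlap. Of the 5 tested genes with tissue-specific or alternative isoforms, none passed. Cox6a2, the heart and muscle form of a complex IV subunit, had 7.61, 7.82 and 7.74 in kainic acid mice, against 7.49, 7.50 and 7.54 in vehicle mice (difference 0.22, limma adjusted p = 0.118), and its widely expressed counterpart Cox6a1 had 8.91, 8.91 and 8.83, against 8.96, 8.95 and 9.0 in vehicle mice. The 2 probe sets of Cox7c, a complex IV subunit, differed in size, at 0.32 and 0.10.

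By complex, the median difference between kainic acid and vehicle over all measured genes was -0.04 for complex I (28 genes), -0.10 for complex II (4), -0.02 for complex III (9), -0.09 for complex IV (12) and -0.07 for complex V (11), and -0.13 for the 7 assembly factors, all of which were below 0. Of the other genes on the array, 40.6% were above 0 in this comparison. Over the tested genes alone the median was -0.03 for complex I, 0.02 for complex III and -0.0011 for complex V. It was -0.02 for the 3 tested assembly factors and did not change for complexes II and IV. The calls lay in complex I (2 of 23 tested), its assembly factors (1 of 3) and complex V (1 of 7), and none of the 16 tested genes of complexes II, III and IV passed.

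**Figure D2:**
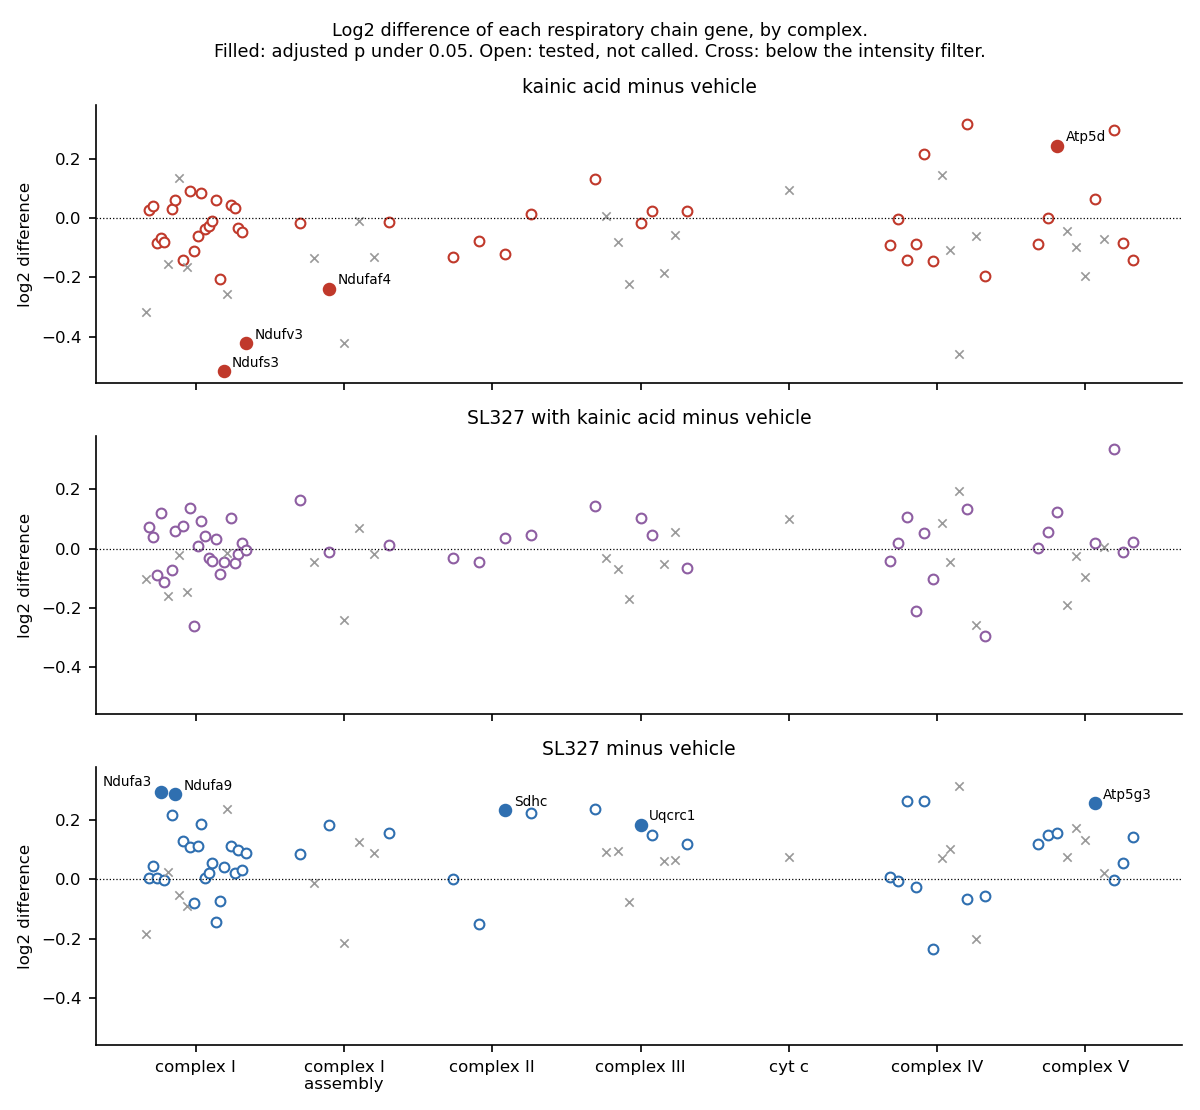
Log2 difference from vehicle (y axis) of each of the 72 genes by complex (x axis), with kainic acid on top, SL327 with kainic acid in the middle and SL327 at the bottom. Filled points passed an adjusted p of 0.05, open points did not, and crosses were below the intensity filter. The 4 named genes of the kainic acid panel lie between -0.52 and 0.24, the middle panel has no filled point, and the 5 of the SL327 panel lie between 0.19 and 0.29.

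As a whole, the 72 genes lay slightly below vehicle after kainic acid. Their median log2 difference was -0.06, against -0.03 for the 13108 other genes, and 22 of 72 (30.6%) were above 0, against 40.6% of the others. With each array centred on its median the values were -0.03 and 0.0029, and with quantile normalization -0.04 and -0.01. Over the 49 tested genes alone the order turned round, with a median of -0.03, against -0.04 for the 7510 other tested genes. The member median of single arrays, taken against the vehicle mean, was -0.0037, -0.11 and -0.06 in kainic acid mice and -0.01, 0.02 and 0.0030 in vehicle mice, so that the ranges overlapped. Dentate granule cell markers moved in the same comparison: 3 of 5 tested (Lct, Dsp and Prox1) fell (60%), against 12.2% of all tested probe sets. The same 3 fell after centring, where the share over all tested probe sets was 9.68%. The median of the 6 measured markers was -0.57 to -0.39 per array in kainic acid mice and -0.14 to 0.09 in vehicle mice. Their part in the lower Ndufs3, Ndufv3 and Ndufaf4 was not tested.

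**Figure D3:**
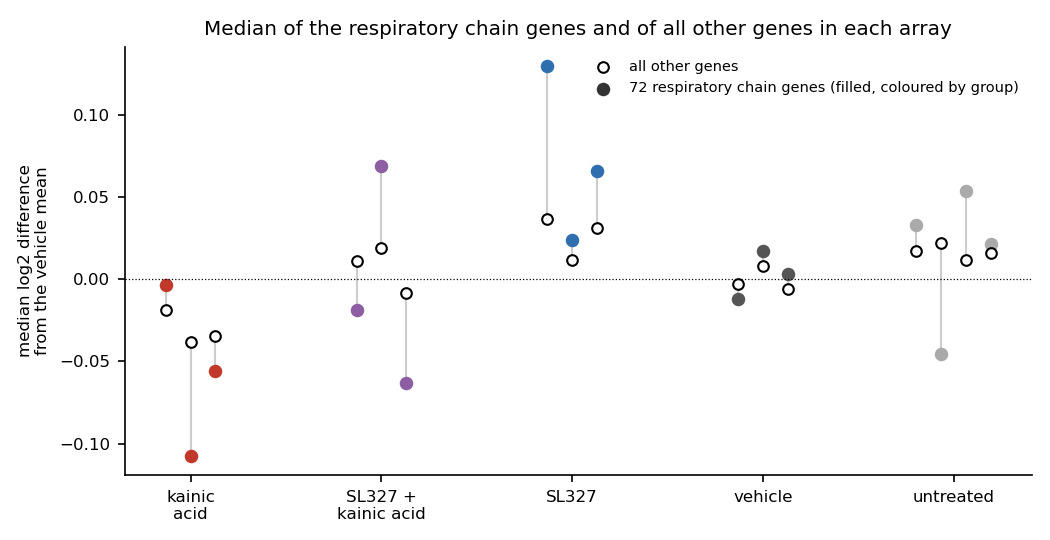
Median log2 difference from the vehicle mean (y axis) of the 72 respiratory chain genes (filled) and of the 13108 other genes (open) in each array, by group (x axis). Lines join the values of 1 array. The 3 SL327 arrays have member medians of 0.02 to 0.13, and the vehicle arrays lie at -0.01 to 0.02.

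With SL327 alone, 5 genes from 4 complexes rose relative to vehicle and none fell, and 44 of the 49 tested genes did not pass. The 5 (10.2% of 49) stand against 5.48% of all tested probe sets that rose, and the 0 that fell against 0.833%. With arrays centred on their median, 2.71% of the probe sets rose and 2.03% fell. At an unadjusted p under 0.05, 15 of the 49 genes were higher and 1 was lower by limma, against 17.7% and 4.68% of the probe sets. The 5 changes were all under 0.30 on the log2 scale.

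Uqcrc1, a core protein of complex III, had 9.51, 9.53 and 9.54 in SL327 mice, against 9.36, 9.33 and 9.35 in vehicle mice. The difference was 0.19 (SE 0.04, limma adjusted p = 0.0229). Untreated mice, at 9.45, 9.48, 9.45 and 9.48, lay between these groups, and against them the difference was 0.06 (limma adjusted p = 0.393). Ndufa9 and Ndufa3, accessory subunits of complex I, had 10.12, 10.09 and 10.12 and 8.12, 8.23 and 8.17 in SL327 mice, against 9.87, 9.74 and 9.86 and 7.89, 7.94 and 7.81 in vehicle mice. Their differences were 0.29 (SE 0.07, limma adjusted p = 0.0240) and 0.29 (SE 0.07, limma adjusted p = 0.0241), and in both genes all SL327 arrays were above all vehicle and untreated arrays. Against untreated mice Ndufa9 did not pass (0.21, limma adjusted p = 0.0757), while Ndufa3 did (0.28, limma adjusted p = 0.0279).

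Sdhc, one of the membrane anchors of complex II, had 9.09, 9.12 and 9.05 in SL327 mice, against 8.80, 8.92 and 8.83 in vehicle mice (difference 0.23, SE 0.06, limma adjusted p = 0.0284). Atp5g3, one of the genes for the c ring of ATP synthase, had 10.39, 10.35 and 10.50 in SL327 mice, against 10.25, 10.07 and 10.15 in vehicle mice (difference 0.26, SE 0.07, limma adjusted p = 0.0308). Neither gene overlapped between the groups, although untreated arrays of Atp5g3, at 10.29, 10.43, 10.27 and 10.22, reached into the SL327 range and the difference from them was 0.11 (limma adjusted p = 0.297). Cyc1, with 8.54, 8.47 and 8.46 in SL327 mice, against 8.30, 8.25 and 8.22 in vehicle mice, just missed the threshold (difference 0.24, limma adjusted p = 0.0502), as did Sdhd, the other anchor of complex II (0.22, limma adjusted p = 0.0648). The iron-sulfur subunit of complex II differed in the opposite direction, as Sdhb had 8.10, 8.01 and 8.06 in SL327 mice, against 8.19, 8.24 and 8.20 in vehicle mice (-0.15, limma adjusted p = 0.140).

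**Figure D4:**
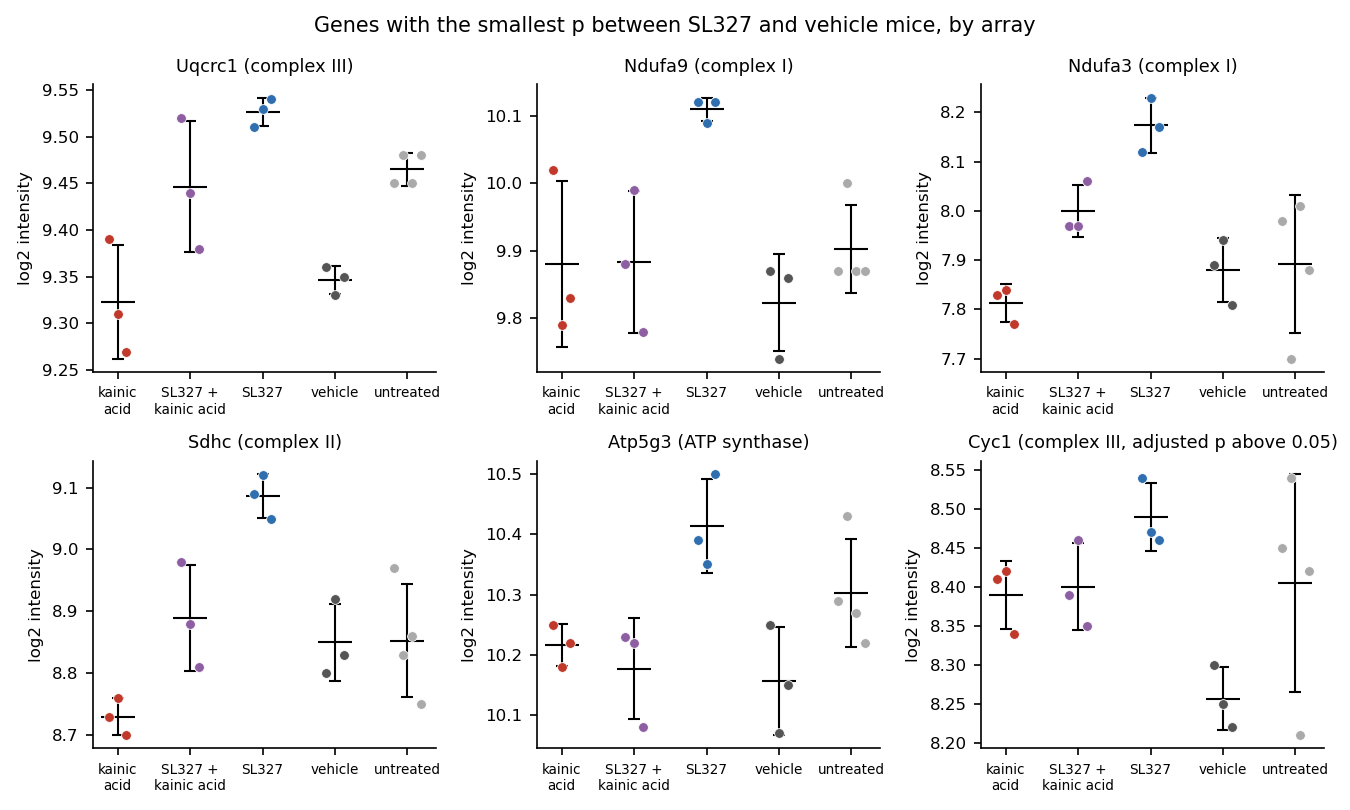
Log2 intensity (y axis) of 6 genes in each of the 16 arrays (points) by group (x axis), with the group mean and SD (bars). SL327 arrays lie above all vehicle arrays in each of the 6 panels, and untreated arrays of Atp5g3 and Cyc1 reach into the SL327 range.

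These 5 calls depended on scale and on single arrays. With arrays centred on their median only Ndufa9 passed (limma adjusted p = 0.0477), while the others had adjusted p of 0.0657 to 0.0856. Leaving out SL327 replicate 1, 2 or 3 left 1, 0 and 0 of the genes, leaving out vehicle replicate 1, 2 or 3 left 1, 2 and 0, and leaving out untreated replicate 2 gave 9. Array medians over tested probe sets were 8.11 to 8.16 in SL327 mice and 8.08 to 8.11 in vehicle mice. Choroid plexus markers varied as well: the median of the 7 measured, from the vehicle mean, was 0.22 to 0.91 per SL327 array, -0.26 to 0.31 per vehicle array and -0.32 to 1.40 per untreated array. None of the 4 tested passed. One of them, Ttr, had 11.66, 12.33 and 12.32 in SL327 mice, against 9.38, 11.80 and 9.59 in vehicle mice (difference 1.85, limma adjusted p = 0.255), and 12.31, 12.55, 11.75 and 8.97 in untreated mice. Their part in the higher respiratory genes was not tested.

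Most of the 72 genes lay above vehicle in SL327 mice. The median difference from vehicle was 0.08 over the 72 genes, against 0.02 over the others, and 54 of 72 (75%) were above 0, against 58.5% of the others. With quantile normalization the medians were 0.05 and 0.0016. Centring, which shifts all genes of an array alike, gave 0.03 and -0.02. All SL327 arrays were above all vehicle arrays in 23 of the 49 tested genes (46.9%), against 25.9% of all tested probe sets, and below them in 2 (4.08%), against 8.57%. By complex, over all measured genes, the median was 0.13 for complex V, where 10 of 11 genes were above 0, and it was 0.11 for complex II, 0.10 for complex III, 0.04 for complex I and 0.00056 for complex IV, where 6 genes were above and 6 below 0. Over the tested genes alone it was 0.14 for complex V (7 genes) and 0.17 for complex III (4 genes).

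No respiratory chain gene rose or fell in mice given SL327 with kainic acid relative to vehicle, where 0.681% of all tested probe sets rose and 0.188% fell. At an unadjusted p under 0.05, 4 of the 49 genes were higher and 2 lower by limma, against 9.13% and 4.52% of the probe sets. The smallest p belonged to Cox6a1, with 8.67, 8.80 and 8.81 in mice given SL327 with kainic acid, against 8.96, 8.95 and 9.0 in vehicle mice (difference -0.21, SE 0.06, limma adjusted p = 0.126). Next were Ndufb4, an accessory subunit of complex I (-0.26, limma adjusted p = 0.204), and Atp5md, a small membrane subunit of ATP synthase (0.34, limma adjusted p = 0.237). Atp5md had 8.43, 8.22 and 8.92 in the 3 arrays, against 8.12, 8.20 and 8.23 in vehicle mice, and passed once replicate 2 of SL327 with kainic acid was left out. The median difference from vehicle was -0.0085 over the 72 genes, against 0.0069 over the others. For the genes that had fallen with kainic acid alone, the 95% confidence interval of the difference from vehicle was -0.24 to 0.15 for Ndufs3, -0.21 to 0.20 for Ndufv3 and -0.15 to 0.13 for Ndufaf4.

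Between seizing mice with and without the inhibitor, Ndufs3, Ndufv3 and Ndufaf4 were higher in those given SL327 with kainic acid. This comparison uses the same kainic acid arrays as the one with vehicle, so both rest on the low values there. Ndufs3 averaged 7.76 ± 0.03 with SL327 and kainic acid and 7.29 ± 0.16 with kainic acid alone (SD, n = 3 each), a difference of 0.47 (SE 0.09, limma adjusted p = 0.00335). Ndufv3, with 8.06, 8.03 and 8.0 in mice given both and 7.80, 7.44 and 7.60 in kainic acid mice, differed by 0.42 (SE 0.10, limma adjusted p = 0.0100). Ndufaf4, with 7.54, 7.59 and 7.48 in mice given both and 7.41, 7.28 and 7.24 in kainic acid mice, differed by 0.23 (SE 0.06, limma adjusted p = 0.0263). SL327 mice had 7.77, 7.75 and 7.68 for Ndufaf4, and mice given both differed from them by -0.20, which did not pass. Ndufs3, Ndufv3 and Ndufaf4 did not overlap between mice given both and kainic acid mice. All arrays of mice given both were above in 7 of the 49 tested genes (14.3%), against 28% of all tested probe sets.

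The 3 genes (6.12% of 49) stand against 13.1% of tested probe sets that were higher in this comparison, and the 0 that were lower against 5.86%. After centring the shares of probe sets were 7.64% and 7.81%. Atp5d, with 8.94, 8.91 and 8.87 in mice given both, lay between the kainic acid and vehicle means (difference from kainic acid -0.12, limma adjusted p = 0.149). SL327 mice had 8.96, 8.94 and 8.92 in this gene. Below the filter, Cox7b had 6.86, 7.33 and 6.75 in mice given both, against 6.32, 6.39 and 6.28 in kainic acid mice (difference 0.65, adjusted p = 0.00671 by limma without the filter), and Ndufaf5 had 6.98, 7.04 and 7.08, against 7.02, 6.77 and 6.78 (0.18, adjusted p = 0.110). The median was 0.05 over the 72 genes, against 0.04 over the others, and -0.00079 and -0.0082 after centring. Without kainic acid replicate 2 only Ndufs3 passed, without kainic acid replicate 1 there were 7 genes and without untreated replicate 2 there were 5, and after centring Ndufaf4 did not pass (limma adjusted p = 0.0836) while Cox6a1 was lower (-0.17, limma adjusted p = 0.0487). Of 5 tested dentate granule cell markers, Lct, Dsp and Prox1 were higher in the same comparison (60%), against 13.1% of all tested probe sets. Their part was not tested.

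Whether kainic acid acted differently in the presence of the inhibitor was tested as the difference of the 2 kainic acid effects. No respiratory gene passed, where 1.98% of tested probe sets were above and 3.78% below 0, and 3 and 6 of the 49 had an unadjusted p under 0.05 by limma, against 11.3% and 10.7% of the probe sets. The smallest p belonged to Atp5d (-0.28, limma adjusted p = 0.0587), Ndufs3 (0.43, limma adjusted p = 0.0657) and Atp5g3 (-0.30, limma adjusted p = 0.0688). Of the other genes that fell with kainic acid, Ndufv3 had 0.33 (limma adjusted p = 0.182) and Ndufaf4 had 0.04 (limma adjusted p = 0.839). After centring, Ndufs3 passed (limma adjusted p = 0.0346). Without untreated replicate 2 there were 4 genes, without kainic acid replicate 1 there were 2, and leaving out array 2 of the mice given both drugs left 1.

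Mice given SL327 with kainic acid did not differ from mice given SL327 alone in any respiratory gene, nor did vehicle from untreated mice, and in both comparisons 0% of all tested probe sets passed in either direction. At an unadjusted p under 0.05, 1 of the 49 genes was higher and 9 were lower with SL327 and kainic acid than with SL327 alone by limma, against 2.66% and 7.86% of the probe sets. The smallest p belonged to Atp5g3 (-0.24, limma adjusted p = 0.283), followed by Ndufa8 and Sdhc (-0.20, limma adjusted p = 0.287). Ndufa8, an accessory subunit of complex I, had 9.06, 9.10 and 8.88 in mice given both, against 9.28, 9.28 and 9.35 in SL327 mice (difference -0.29, limma adjusted p = 0.287). The median over the 72 genes was -0.09, against -0.02 over the others, and 58 of 72 were below 0. Between vehicle and untreated mice 4 of the 49 genes had an unadjusted p under 0.05 by limma and all 4 were lower with vehicle, against 5.60% of the probe sets, namely Ndufs3 (-0.23), Cyc1 (-0.15), Uqcrc1 (-0.12) and Atp5g3, each with a limma adjusted p of 0.730.

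Genes that serve the respiratory chain without being subunits were followed through fixed lists. Of 31 tested assembly factors of complexes I to V outside the Ndufaf family, 2 rose and 2 fell with kainic acid (6.45% each), against 7.41% and 12.2% of all tested probe sets. Sdhaf2, which attaches the flavin of complex II (-0.36, limma adjusted p = 0.00913), and Uqcc3, an assembly factor of complex III (-0.40, limma adjusted p = 0.0177), were lower, and Ttc19, which acts on complex III, was higher (0.19, limma adjusted p = 0.0289). With SL327 alone 7 rose (22.6%) and none fell, against 5.48% and 0.833% of all tested probe sets, and after centring 5 rose, against 2.71%. Among the 7 were Atpaf2, an assembly factor of ATP synthase (0.32, limma adjusted p = 0.00899), Oxa1l, which inserts subunits into the inner membrane (0.26, limma adjusted p = 0.0125), and Coa6, an assembly factor of complex IV (0.37, limma adjusted p = 0.0131). The list medians were -0.09 for kainic acid and 0.11 for SL327 over the tested genes, against -0.04 and 0.04 over the other tested genes.

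Of 7 tested regulators of mitochondrial biogenesis, Gabpb1 and Gabpb2, genes for beta subunits of the transcription factor GABP, fell with kainic acid (28.6%, against 12.2% of all tested probe sets) and none rose. Gabpb1 had 8.0, 7.84 and 7.72 in kainic acid mice, 8.36, 8.51 and 8.49 in mice given SL327 with kainic acid, 8.87, 8.74 and 8.53 in SL327 mice and 8.29, 8.29 and 8.21 in vehicle mice. These 4 groups were separate from each other in this gene. The difference from vehicle was -0.41 with kainic acid (SE 0.11, limma adjusted p = 0.0178) and 0.45 with SL327 (SE 0.11, limma adjusted p = 0.0285). Untreated mice had 8.83, 8.56, 8.39 and 8.40, which reached the SL327 range. Gabpb2 was lower with kainic acid (-0.33, limma adjusted p = 0.0297) and differed by -0.17 with SL327 (limma adjusted p = 0.321).

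The lists of fuel supply genes had 1 or 2 called genes each with kainic acid, where 19.6% of all tested probe sets passed in one direction or the other. Of 14 tested genes of the tricarboxylic acid cycle and pyruvate dehydrogenase, Pdhx, which anchors a subunit of pyruvate dehydrogenase, fell with kainic acid (-0.16, limma adjusted p = 0.0233), and Mdh2, mitochondrial malate dehydrogenase, rose with SL327 (0.23, limma adjusted p = 0.0356), and neither passed after centring. Of 6 tested carriers and porins, the phosphate carrier Slc25a3 had 9.95, 10.37 and 10.35 in kainic acid mice, against 9.53, 9.43 and 9.55 in vehicle mice (0.72, SE 0.15, limma adjusted p = 0.00431), and the aspartate-glutamate carrier Slc25a12 fell (-0.16, limma adjusted p = 0.0308). Of 8 tested glycolytic genes, the phosphofructokinase gene Pfkp rose with kainic acid (0.21, limma adjusted p = 0.0433) and none fell. As a further set, 17 tested of 44 measured cytosolic ribosomal protein genes had medians of 0.03 with kainic acid and 0.10 with SL327 (0.03 and 0.08 over the 44). With kainic acid 1 was higher (5.88%, against 7.41% of all tested probe sets). With SL327 2 were higher (11.8%, against 5.48%) and 1 was lower (5.88%, against 0.833%).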

How the data were processed

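Hippocampal RNA of 16 mice had been hybridized to Affymetrix mouse exon arrays. The authors normalized the arrays with RMA in the oligo package (versions not given in the sources used here) and deposited log2 intensities, which were used as deposited. RMA brings the arrays towards one distribution, so part of a shift shared by most genes may be removed from these values. Array medians over the tested probe sets still ranged from 8.04 to 8.16. Gene names came from the array annotation for 15417 of 20372 probe sets and were updated through RefSeq gene IDs, 14704 of them naming 1 gene, 713 several, which were not used as members, and 4955 none. Many nuclear respiratory chain genes have processed pseudogenes, and cross-hybridization was not tested. A group-means model over all 5 groups was fitted with limma 3.58.1 in R 4.3.3 (11 residual degrees of freedom), and p-values were adjusted over 8520 annotated probe sets that lay above the median of 3 or more arrays, with a threshold of 0.05. Contrasts were tested on simulated data first. Sample groups came from the labels. The p-values set a difference of group means against the spread between arrays within groups. That spread was shared over all 5 groups and drawn towards that of all probe sets by eBayes. The number of arrays limits the precision. Arrays from later times after seizure onset were not analysed here.

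The members, companion lists and tests were chosen with earlier results of these data known. Named genes were up to 10 called members per direction and contrast, otherwise the 3 with the smallest p, a list of core subunits and isoforms, and up to 3 genes of a companion list. With kainic acid, 1 of 5 tested excitatory neuron (20%), 1 of 4 astrocyte (25%) and 1 of 2 endothelial markers (50%) fell. The share over all tested probe sets was 12.2%. Of 7 tested interneuron markers 1 rose (14.3%), against 7.41% of all tested probe sets. None of the 7 tested oligodendrocyte or 4 tested microglial markers was called. After centring the excitatory neuron and astrocyte calls were lost. No blood marker was tested. Samples with the same replicate number did not deviate together (median r of -0.03 over 30 pairs, against 0.01 over 72 pairs with different numbers), so the numbers were not used as pairs. Alternatives were centring, quantile normalization, other filters, eBayes settings, groups, controls and probe set summaries, and leaving out each array, and, added after the data were seen, centring for the companion lists.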

Additional observations from a re-analysis of the deposited data

Results flagged for a closer look

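In 3 of the 29 named genes, 1 of the 4 untreated mice stood apart from the other 3, and it was untreated replicate 2 each time. Ndufs3 had a log2 intensity of 8.26 there, against 7.98 in the nearest untreated array. Ndufa9 had 9.9995, against 9.87, and Atp5d had 8.61, against 8.78. Chance flags about 1 in 20 groups of 4. The same array had the lowest mean correlation with its group, at 0.958, and a member median of -0.05 from the vehicle mean, against 0.02 to 0.05 in the other untreated arrays. It is one of the 4 untreated arrays in the comparison of vehicle with untreated mice, and elsewhere enters the shared variance and the alternatives with untreated mice as control.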

How the results depend on the processing

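For other controls, left-out arrays, quantile normalization and the block, the share of all tested probe sets was not counted. These counts are therefore of members only. With untreated mice as control, 8 respiratory genes (2 higher, 6 lower, all 4 of the original among them) passed for kainic acid, 3 for SL327 and 1 (Cox6a1, lower) for SL327 with kainic acid, and with both control groups pooled 2 passed for the last. Cox7c, 1 of the 2 higher, lay above the median in only 4 arrays. Its highest values were in the 3 kainic acid arrays (7.48, 7.58 and 7.62) and replicate 1 of SL327 with kainic acid (7.66). It was thus tested only through the group in which it was called higher, so this call is no independent support. Centring arrays on their median left 1 gene for SL327 and quantile normalization left 2, with member medians of 0.0414 and 0.0452 in place of 0.0890 over the 49 tested genes. For SL327 with kainic acid against kainic acid the member median was -0.0127 after centring, in place of 0.0339. For the difference of the kainic acid effects 1 gene passed after centring, after quantile normalization (Ndufs3 in both) and without the intensity filter (Ndufaf5), and 3 in a fit without untreated mice. Centring without the filter, added after the data were seen, gave 0 genes for SL327 and 1 for the difference of effects. Leaving out 1 array gave 3 to 7 genes for kainic acid, 0 to 9 for SL327, 0 to 1 for SL327 with kainic acid, 1 to 7 for SL327 with kainic acid against kainic acid, and 0 to 4 for the difference of effects, and member medians of -0.00800 to 0.0578 for SL327 with kainic acid against kainic acid, lowest without replicate 2 of SL327 with kainic acid. With the replicate number as a block, the counts were 4 for kainic acid, 4 for SL327, 3 for SL327 with kainic acid against kainic acid and 0 otherwise. The numbers do not pair the mice, and under the block Ndufa3 and Atp5g3 were lost for SL327 and Cyc1 was gained. The causes of these shifts were not tested. Of 56 single-gene results under 1482 alternatives, none reversed a called direction, 62 lost the threshold and 29 gained it. Averaging the probe sets of a gene took Ndufs3 below the filter, so it has no value there. Without any of these alternatives, the smallest difference called in any of the 49 genes was 0.19 on the log2 scale.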

Other observations

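The genes for the c ring of ATP synthase and the paired forms of complex IV subunit 4 were measured side by side. Atp5g1 and Atp5g2, below the intensity filter, had 7.31, 7.31 and 7.44 and 7.18, 7.30 and 7.21 in SL327 mice, against 7.09, 7.27 and 7.19 and 7.07, 7.25 and 6.97 in vehicle mice, so that all 3 c ring genes had a higher mean with SL327 and Atp5g3 alone was above the filter. Without the filter, adjusted p by limma was 0.291 for Atp5g1, 0.413 for Atp5g2 and 0.0504 for Atp5g3, and none of the 3 passed. The common form Cox4i1 had 7.77, 7.76 and 7.81 in SL327 mice, against 7.79, 7.70 and 7.83 in vehicle mice, and the oxygen-responsive form Cox4i2 had 7.53, 7.56 and 7.47, against 7.56, 7.57 and 7.44. Neither form of subunit 4 was separate between the groups. Cox5b, another nuclear subunit of complex IV, had 8.28, 8.06 and 8.34 in SL327 mice and 7.76, 7.77 and 7.92 in kainic acid mice, against 7.92, 8.05 and 7.90 in vehicle mice (limma adjusted p = 0.105 for SL327 and 0.311 for kainic acid).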
